A study of Mus musculus with 16 samples.

Results

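Core pluripotency factors are the genes that keep embryonic stem (ES) cells undifferentiated. Here they were followed as 8 genes, namely POU5F1, NANOG, ZFP42, ESRRB, UTF1, NR0B1, FGF4 and TDGF1, chosen by name. They were measured by 11 of the 45281 probes of an Illumina MouseWG-6 v2.0 bead array. The arrays held RNA of 16 mouse cultures at day 7, in serum-free medium throughout. Murine ES cells had been grown on a monolayer of PA6 stromal cells (ES/PA6 co-cultures), and other dishes held PA6 cells alone. Each kind of culture had received no growth factor (-GFs), 20 ng/ml recombinant FGF2 or, by the labels, 10 ng/ml recombinant BMP4. The methods of the study give a lower BMP4 dose. The factor was withdrawn after 3 days by 1 label and by the methods, and stayed for 7 days by another label. There were 2 arrays of -GFs, 3 of FGF2 and 2 of BMP4 co-cultures, and 3 of each of the PA6 groups. The ES cells were a single knock-in line that carried EGFP under the τ promoter, so that no group shows how other ES lines behave. The co-culture RNA was a mixture of ES-derived and PA6 RNA.

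POU5F1 (Oct4) and its partner SOX2 bind DNA side by side and, with NANOG and ESRRB, switch on one another and many other genes of the undifferentiated state. ZFP42 (Rex1) is a zinc finger protein widely used as a marker of naive ES cells, UTF1 a chromatin protein of undifferentiated cells, and NR0B1 (Dax1) an orphan nuclear receptor of the same network. FGF4 is the growth factor that ES cells secrete and that prepares them for differentiation through ERK signalling, and TDGF1 (Cripto) is the co-receptor for Nodal. All of these genes are turned down when ES cells differentiate.

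The promoters of NANOG and ZFP42 are shown because they hold the letters that POU5F1 binds, the octamer-like word ATGCAAA, in the window of 250 bases before to 50 bases after a RefSeq start. Windows were available for all 8 genes (11 windows, assembly GRCm38.p6), and the word, on either strand, was in windows of these 2 genes and in 4.63% of the 32851 mouse windows. Both stretches lie upstream of a start and are written 5′ to 3′ along the gene's own strand. Capitals mark the octamer-like word and, in NANOG, also the SOX-like word CATTGT, both as they read on the opposite strand.
NANOG chr6:122707374-122707467, + strand: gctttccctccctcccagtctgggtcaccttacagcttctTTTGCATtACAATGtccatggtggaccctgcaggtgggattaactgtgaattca
ZFP42 chr8:43307148-43307234, - strand: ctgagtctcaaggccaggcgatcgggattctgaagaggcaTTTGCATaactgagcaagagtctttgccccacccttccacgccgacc

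In NANOG the octamer-like word began 75 bases before the start and the SOX-like word followed after 1 base. That joint arrangement, CATTGTNATGCAAA on either strand, occurred in 2 of the 32851 windows (0.00609%), and both were windows of NANOG, one for each of its annotated starts. In ZFP42 the word began 185 bases before the start and was part of a full octamer, ATGCAAAT, which 1.74% of windows held. The SOX-like word alone was in 12.6% of windows, among them those of NANOG, POU5F1 and ESRRB. The ESRRB-like word TCAAGGTCA was in 0.423% of windows and in none of the 8 genes. The words were chosen after the sequences had been seen, and a match describes letters only.

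NR0B1 could not be followed. Its probe was detected, that is, brighter than 95% of the negative control beads, on 1 array of 16, BMP4 replicate 1 of the co-cultures, where its raw intensity was 286.7. On all other arrays it lay between 107.8 and 182.2, within the background. The other 7 genes were detected on every array of at least 1 group and were tested among 14829 genes. All of them were detected on all 7 co-culture arrays, except FGF4, which was not detected on replicate 1 of the -GFs co-cultures. Tests were moderated linear models (limma) on normalised log2 intensities. A difference counted as called at an adjusted p (Benjamini-Hochberg, over all genes) under 0.1 and a size over 1 on the log2 scale, as the study had set.

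The share of probes detected was 37.3% to 47.0% per array, and no array duplicated another. The PA6 list of 12 stromal genes, such as collagens, DCN and CXCL12, averaged 10.81 to 11.38 (log2) on the co-culture arrays and 12.71 to 13.27 on the PA6 arrays. The labelled stroma was therefore present in both kinds of culture. Since the RNA is bulk, fewer undifferentiated cells and less RNA per such cell cannot be told apart in any value below.

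**Figure D1:**
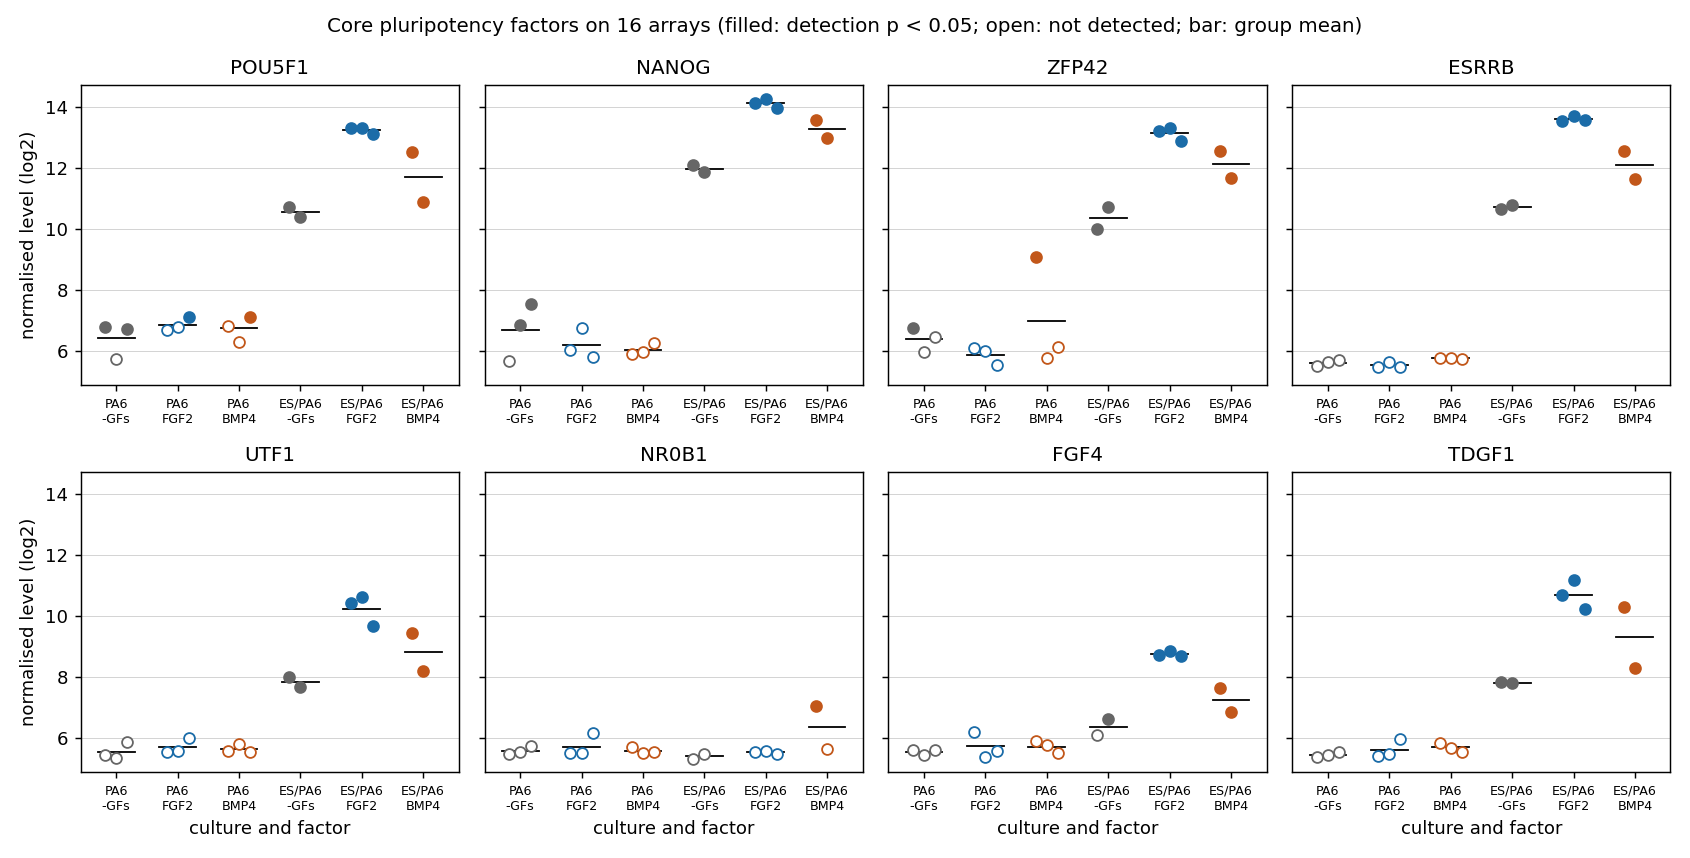
Normalised log2 level of the 8 genes on each of the 16 arrays, by culture and factor (horizontal axis). Filled points were detected, open points were not, and bars are group means. In 7 panels the 3 FGF2 co-cultures have the highest group mean, 13.26 for POU5F1, and the PA6 groups have the lowest means. The NR0B1 panel has 1 filled point.

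FGF2 against -GFs asked what FGF2 changed in the co-cultures. All 7 genes tested were higher with FGF2, by 4.45-fold (NANOG) to 7.41-fold (TDGF1), and on every FGF2 array above every -GFs array, an arrangement that 17.6% of all genes showed. All 7 were called, against 5.07% of all genes tested that were called higher. The median difference of the 7 was 2.70 on the log2 scale, against -0.06 over all genes. The secreted factor FGF4 and the co-receptor TDGF1 rose beside the 5 nuclear factors, which had a median of 2.70.

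POU5F1, the factor without which the undifferentiated state is lost, had raw intensities of 1781.2 and 1450.3 on the -GFs arrays and of 10341.3, 9315.4 and 8862 on the FGF2 arrays. The groups were far apart and each was narrow. On the normalised scale the means were 10.56 ± 0.23 (SD, n = 2) and 13.26 ± 0.11 (SD, n = 3), a rise of 2.70 ± 0.43 (SE, adjusted p = 0.0181).

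ESRRB, an orphan nuclear receptor that sustains self-renewal, had raw intensities of 1725.7 and 1885.5 without growth factors and of 12083.9, 12175.5 and 12339.2 with FGF2. It had the tightest FGF2 replicates of the 7 genes. It rose by 2.87 ± 0.28 (SE, adjusted p = 0.00476), or 7.32-fold. The second ESRRB probe was not tested, since no group detected it on every array. It averaged 6.25 (log2) on the -GFs arrays and 6.43 on the FGF2 arrays, and was detected on 1 array of each. It did not show the rise, which thus rests on 1 probe.

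NANOG, the homeodomain factor that can hold ES cells undifferentiated without LIF, had raw intensities of 4303 and 3741.1 without growth factors. With FGF2 they were 17525.1, 18054.3 and 16646.2, and the rise was 2.15 ± 0.23 (SE, adjusted p = 0.00587), the smallest of the 7. Its second probe gave a rise of 3.05 ± 0.38 (SE, adjusted p = 0.00893). The probes thus shared the direction and differed in size, 4.45-fold against 8.30-fold.

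ZFP42 had raw intensities of 1158.1 and 1805.1 on the -GFs arrays and of 9806.8, 9225.1 and 7379.9 on the FGF2 arrays. Replicate 1 minus replicate 2 of the -GFs cultures was -0.74 on the log2 scale, a wider gap than in any other of the 7 genes. Even so the rise was 2.77 ± 0.34 (SE, adjusted p = 0.00865).

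UTF1 was at 440.3 and 361.5 without growth factors and at 1680.2, 1655.6 and 954.5 with FGF2. FGF2 replicate 3 was the lowest FGF2 array for this gene, yet still above both -GFs arrays. The rise was 2.40 ± 0.42 (SE, adjusted p = 0.0232).

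FGF4 was near background without growth factors, at 213.8 (not detected) and 242.2. With FGF2 it was detected on all 3 arrays, at 694.7, 668 and 582.5. The normalised difference was 2.39 ± 0.28 (SE, adjusted p = 0.00771).

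TDGF1 was at 410 and 379.5 without growth factors and at 1942.1, 2334 and 1334 with FGF2. The -GFs arrays were almost equal and the FGF2 arrays were spread, with replicate 3 again the lowest. The rise of 2.89 ± 0.56 (SE, adjusted p = 0.0305) was the largest of the 7 and the least precise.

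The second POU5F1 probe rose by 2.90 ± 0.33 (SE, adjusted p = 0.00675), close to the first. Arrays that stand in the same run of columns of the deposited table can be set against each other for this comparison in 2 of the 3 runs. In those 2 array pairs the 7 differences were 2.05 to 3.23 and 1.99 to 2.77. Without either -GFs array in turn, 5 of the 7 calls held: the adjusted p of TDGF1 became 0.146 and 0.128, and that of UTF1 0.115 and 0.116, with differences of 2.24 to 2.90. Probes of one gene can also bind near-identical pseudogene transcripts, which POU5F1 and NANOG have, and this was not tested.

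BMP4 against -GFs in the co-cultures gave smaller differences in the same direction. The 7 genes were higher by 1.84-fold (FGF4) to 3.37-fold (ZFP42), and on the normalised scale both BMP4 arrays lay above both -GFs arrays for each of them, an arrangement that 22.8% of all genes showed. Of the 7, 3 were called, ZFP42, ESRRB and NANOG, against 2.28% of all genes called higher. The median difference was 1.31 on the log2 scale, and -0.0015 over all genes tested.

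ZFP42 had raw intensities of 5410 and 3300.9 on the BMP4 arrays, against 1158.1 and 1805.1 without growth factors. It rose by 1.75 ± 0.37 (SE, adjusted p = 0.0707). NANOG, at 10869.6 and 8075.8 with BMP4, rose by 1.31 ± 0.25 (SE, adjusted p = 0.0529). The second NANOG probe rose by 2.01 ± 0.42 (SE, adjusted p = 0.0729). ESRRB, at 5380.4 and 3231.7, rose by 1.36 ± 0.30 (SE, adjusted p = 0.0815). Its second probe did not show this rise. That probe averaged 5.94 (log2) on the BMP4 arrays, neither of which detected it, against 6.25 on the -GFs arrays. For the tested probes of these 3 genes, the lower BMP4 array was also brighter in raw intensity than the higher -GFs array.

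The other 4 genes were not called. POU5F1 was at 5286.2 and 1995.9 with BMP4, so that the gap between the replicates (1.64 on the log2 scale) was wider than that between the groups, and the difference was 1.15 ± 0.47 (SE, adjusted p = 0.318). TDGF1 was at 1292.2 and 459.6, with a difference of 1.49 ± 0.61 (SE, adjusted p = 0.317). UTF1 was at 798.8 and 440.5, the lower BMP4 array level in raw intensity with the higher -GFs array, and its difference was 0.997 ± 0.46 (SE, adjusted p = 0.385). FGF4 was at 354 and 254.6, detected on both arrays, with a difference of 0.88 ± 0.30 (SE, adjusted p = 0.228). The 95% confidence intervals of these 4 differences reached from -0.09 (UTF1, lower end) to 2.93 (TDGF1, upper end), and each of the 4 held the called rises of NANOG and ESRRB. The interval of FGF4 ended at 1.59, below the rise of ZFP42, which the other 3 intervals held.

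BMP4 replicate 1 was higher than replicate 2 in all 7 genes, by 0.59 (NANOG) to 2.01 (TDGF1) on the log2 scale. In POU5F1, UTF1 and TDGF1 the gap was over 1, which 2.27% of all genes showed in that direction. The gaps between the -GFs replicates were -0.74 to 0.33 and those between FGF2 replicates at most 0.95 in size. Between the same BMP4 replicates the median gap was 0.77 over the 14 partner factors of the pluripotency network, -0.21 over 12 stromal genes and -0.25 over 6 neural genes. The calls depended on these arrays: without BMP4 replicate 2, 5 of 7 genes were called, and without BMP4 replicate 1 none was, with differences of 0.34 (POU5F1) to 1.30 (ZFP42). Leaving out either -GFs array also left no call, leaving out FGF2 replicate 1 or 3, which help to set the spread, left 1, and leaving out FGF2 replicate 2 left 2. The count was 1 when runs of columns entered the fit as a block. In the 1 run of columns that holds both groups, BMP4 replicate 2 exceeded -GFs replicate 2 by 0.23 (FGF4) to 1.13 (NANOG).

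**Figure D2:**
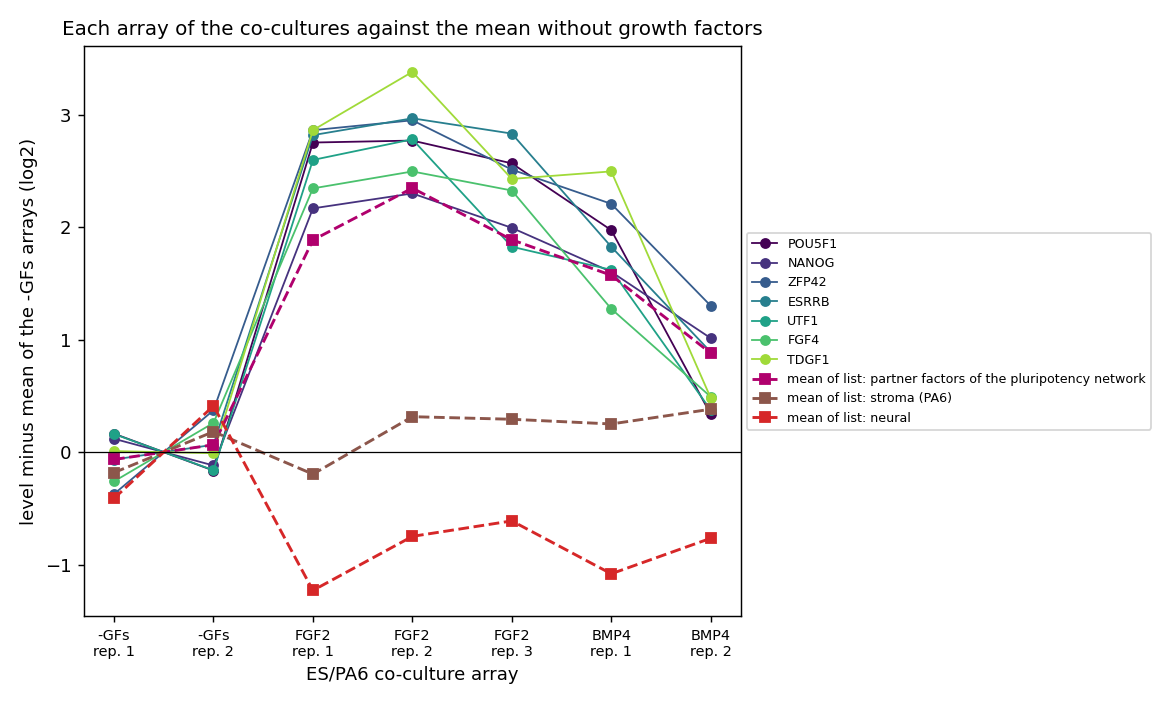
Level on each of the 7 co-culture arrays (horizontal axis) minus the mean of the -GFs arrays, log2, for the 7 genes tested (circles) and for the means of 3 gene lists (squares). Lines join the points of 1 gene or list and imply no order of replicates. The 7 genes rise together with FGF2 and are lower on BMP4 replicate 2 than on BMP4 replicate 1, by 2.01 for TDGF1.

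BMP4 against FGF2 placed the factors side by side. All 7 genes had a lower mean with BMP4, with differences from -1.54 (POU5F1) to -0.85 (NANOG) on the log2 scale, with a median of -1.40 against 0.04 over all genes. For 6 of them both BMP4 arrays lay below all FGF2 arrays, as 14.6% of all genes did. TDGF1 was the exception, since BMP4 replicate 1 (10.31 after normalisation) lay just above FGF2 replicate 3 (10.24).

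Of the 7, 2 were called lower, against 0.688% of all genes. ESRRB fell by 1.51 ± 0.28 (SE, adjusted p = 0.0892), or 2.86-fold. FGF4 fell by 1.51 ± 0.28 (SE, adjusted p = 0.0892), or 2.84-fold. POU5F1 was not called on the brighter probe (-1.54 ± 0.43, SE, adjusted p = 0.183). On its second probe the difference was -1.69 ± 0.33 (SE, adjusted p = 0.099) and past the threshold. For NANOG, ZFP42, UTF1 and TDGF1 the adjusted p was 0.169 to 0.322, and every 95% confidence interval lay below 0.

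These calls were also decided by single arrays. Without BMP4 replicate 1 the count was 4, without BMP4 replicate 2 or any FGF2 array it was 0, and without either -GFs array it was 1. Within runs, BMP4 replicate 1 minus FGF2 replicate 2 was -1.22 to -0.70 and BMP4 replicate 2 minus FGF2 replicate 3 was -2.23 to -0.98 over the 7 genes. The order of the levels was thus FGF2, BMP4, -GFs and then the PA6 cultures for each of the 7 genes. The step from FGF2 to -GFs was past the threshold for all of them, and the steps on either side of BMP4 for 2 and 3 of them.

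**Figure D3:**
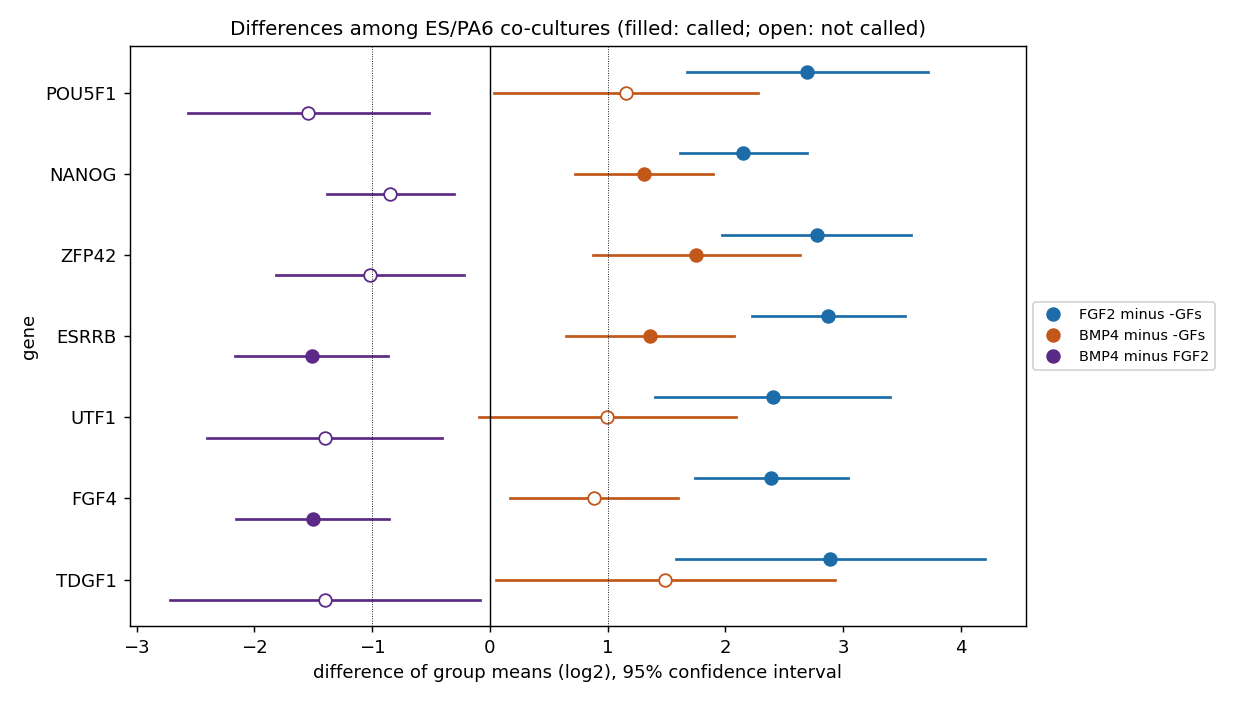
Differences between groups of co-cultures (log2, horizontal axis) with 95% confidence intervals for the 7 genes tested. Filled points were called and open points were not, and dotted lines stand at -1 and 1. The FGF2 differences lie between 2.15 and 2.89, those of BMP4 between 0.88 and 1.75, and BMP4 minus FGF2 between -1.54 and -0.85.

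The PA6 mono-cultures showed what the same probes read without ES cells, with and without the factors. UTF1, FGF4, TDGF1 and the tested probe of ESRRB were not detected on any of the 9 PA6 arrays. POU5F1 was just detected on 4 of the 9, at raw intensities of 226.1 to 246, and its second probe on none. NANOG was detected on replicates 2 and 3 of the -GFs PA6 cultures, at 231.9 and 317.9, and its second probe on none. ZFP42 was detected on replicate 1 of -GFs, at 234.1, and on replicate 1 of BMP4, at 734.3. That BMP4 array stood far above the other PA6 arrays for ZFP42 (134.5 to 234.1), and none of the tested probes of the other 6 genes was detected on it. The second ESRRB probe was, at 340.4.

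No gene of the 7 was called in PA6 cultures with FGF2 (0.0270% of all genes called) or with BMP4 (0% called), by limma. At an unadjusted p under 0.05 the count was also 0 of 7 in both, while 1536 and 1334 of the 14829 genes were past it. The tested probes of UTF1, FGF4, TDGF1 and ESRRB lay at background in PA6 cells, and those of POU5F1, NANOG and ZFP42 near it on most arrays. A fall could thus not have been seen, and the values compared were mostly background. The differences ran from -0.51 to 0.45 with FGF2 and from -0.63 (NANOG) to 0.61 (ZFP42) with BMP4.

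Against PA6 cultures of the same factor, the co-cultures were called higher in 6 of 7 genes without growth factors (22.3% of all genes), in 7 with FGF2 (23.4%) and in 7 with BMP4 (22.0%). None of the 7 was detected on all 3 arrays of a PA6 group, so each passed the detection filter through the co-cultures. That entry favours a higher level in co-cultures, so these counts are no separate evidence of it. NANOG was 39.4-fold higher without growth factors, at least 161-fold higher with FGF2 and at least 86.7-fold higher with BMP4. "At least" marks groups in which no PA6 array detected the tested probe, and the fold is then taken against the dimmest detected probes of each array. For the tested probe of ESRRB the co-cultures were at least 16.6-fold, 112-fold and 38.0-fold higher in the same order. The second ESRRB probe was detected on 1, 2 and 1 of 3 PA6 arrays. With FGF2 it averaged 7.02 (log2) in PA6 cells and 6.43 in co-cultures, so these bounds hold for 1 probe only. POU5F1 was 17.7-fold, 83.7-fold and 31.3-fold higher, against PA6 groups in which 2, 1 and 1 of 3 arrays detected it. ZFP42 was 15.8-fold higher without growth factors (1 of 3 PA6 arrays detected it) and at least 80.9-fold higher with FGF2. These folds, and that of NANOG without growth factors (2 of 3 PA6 arrays), rest on PA6 means near background. No fold is given for ZFP42 with BMP4, since its PA6 mean rests on the array at 734.3, below both co-culture arrays (5410 and 3300.9).

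The dimmer genes gave smaller bounds. TDGF1 was at least 2.18-fold higher without growth factors, at least 14.9-fold with FGF2 and at least 5.48-fold with BMP4. UTF1 was at least 2.21-fold, 10.8-fold and 3.95-fold higher. FGF4 was not called without growth factors, where the co-cultures were 0.83 ± 0.27 (SE, log2) above PA6 cells. With FGF2 it was at least 3.89-fold and with BMP4 at least 1.33-fold higher.

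The effect of FGF2 in co-cultures minus its effect in PA6 cells was past the threshold for all 7 genes, from 2.21 (FGF4) to 3.28 (ZFP42) on the log2 scale, against 4.92% of all genes called higher. On the PA6 side UTF1, FGF4, TDGF1 and ESRRB were at background, and POU5F1, NANOG and ZFP42 near it. The FGF2 difference thus largely restates the rises in co-cultures. For BMP4 the effect in co-cultures minus that in PA6 cells was past the threshold for 1 gene. This was ESRRB, at 1.21 ± 0.29 (SE, adjusted p = 0.0425), against 2.61% of all genes. NANOG followed with 1.94 ± 0.59 (SE, adjusted p = 0.114), and the other 5 lay between 0.71 and 1.26. ESRRB lost the call without -GFs replicate 1 or BMP4 replicate 1 of the co-cultures, and without BMP4 replicate 2 the count was 3. Without -GFs replicate 1 or BMP4 replicate 1 of the PA6 cultures it was 2.

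Genes that work beside these factors were counted in fixed lists. Of 14 partner factors of the pluripotency network tested, 9 rose with FGF2 and none fell, with a median of 2.46. Over all genes 5.07% were called higher and 2.35% lower. TCL1, a co-activator of AKT, rose by 3.93 ± 0.58, the T-box factor TBX3 by 3.40 ± 0.50, the Krüppel-like factor KLF4 by 3.37 ± 0.47 and the nuclear receptor NR5A2 by 3.25 ± 0.30 (log2, SE). With BMP4, 7 of the 14 rose and none fell, against 2.28% of all genes called higher and 1.47% lower. The median was 1.80, led by TBX3 (2.38 ± 0.55), ZFP296 (2.17 ± 0.34), KLF4 (2.12 ± 0.51) and NR5A2 (2.11 ± 0.33). PA6 cells alone also carried part of this list, and KLF2 was detected on all 9 PA6 arrays. The list averaged 7.79 to 8.13 (log2) on the -GFs PA6 arrays and 9.66 to 9.79 on the -GFs co-culture arrays. Which cells of the co-cultures carried the rises was not measured. SOX2, the DNA-binding partner of POU5F1, named here after its values were seen, was not called, at 0.45 ± 0.19 with FGF2 (SE, adjusted p = 0.225) and -0.43 ± 0.21 with BMP4 (SE, adjusted p = 0.405). SOX2 is also a neural progenitor gene. The BMP4 count of the list was 1 or 2 without either -GFs array or BMP4 replicate 1, and 4 without FGF2 replicate 3.

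Of 13 other markers of undifferentiated ES cells tested, 11 rose with FGF2 and none fell. Over all genes 5.07% were called higher and 2.35% lower. DPPA2 rose by 3.82 ± 0.56, FBXO15 by 2.94 ± 0.32, the secreted phosphoprotein SPP1 by 2.90 ± 0.24 and the alkaline phosphatase gene AKP2 by 2.40 ± 0.30 (log2, SE). SPP1 was also higher with FGF2 in PA6 cells alone, at 2.70 ± 0.43 (SE, adjusted p = 0.127, not called), on all 3 FGF2 arrays above all -GFs arrays, and its mean level there was 12.22 against 13.06 in co-cultures. With BMP4, 5 of the 13 rose, against 2.28% of all genes, led by DPPA2 at 3.17 ± 0.61. The median was 2.10 with FGF2 and 1.20 with BMP4. LIN28, named after its values were seen, went the other way without a call, at -1.57 ± 0.52 with FGF2 (SE, adjusted p = 0.129) and -1.88 ± 0.56 with BMP4 (SE, adjusted p = 0.170). SPP1 was lower with BMP4 than with FGF2, at -1.32 ± 0.24 (SE, adjusted p = 0.0839), the only call of this list in that comparison. No gene of the list was called there without either -GFs array, any FGF2 array or BMP4 replicate 2. The BMP4 count of 5 was 2 or fewer without either -GFs array or BMP4 replicate 1.

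Genes of the primed epiblast and primitive streak, the next stages after the naive ES cell, gave no call among 7 tested, with either factor. The median was 0.11 with FGF2 and -0.25 with BMP4. DNMT3B, the brightest, was at 0.04 ± 0.72 with FGF2, and OTX2 at 1.10 ± 0.61 (SE, adjusted p = 0.341). Brachyury (T), the T-box factor of the streak, named after its values were seen, lay lower on all FGF2 arrays than on the -GFs arrays without a call, at -1.77 ± 0.65 (SE, adjusted p = 0.166), and was at -1.09 ± 0.72 with BMP4 (SE, adjusted p = 0.568). FGF5, EOMES, FOXA2, MESP1 and MIXL1 did not pass the detection filter.

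Around TDGF1, 1 of 10 genes of the Nodal pathway was called with FGF2, while 5.07% of all genes were called higher. NODAL, the ligand that TDGF1 helps to bind its receptors, rose with FGF2 by 2.23 ± 0.36 (SE, adjusted p = 0.0175). With BMP4 it was at 1.13 ± 0.39 (SE, adjusted p = 0.232). The receptors, the Lefty antagonists and the other 4 genes of the pathway were not called with either factor, and the list median was 0.33 with FGF2 and 0.17 with BMP4.

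Around FGF4, 7 genes of FGF receptors and the ERK response were tested. ETV5, an ETS factor induced by ERK, rose with FGF2 by 1.80 ± 0.39 (SE, adjusted p = 0.0428). The receptors FGFR2 and FGFR3 fell by 1.54 ± 0.27 and 2.10 ± 0.33 (SE, adjusted p = 0.0223 and 0.0164). With BMP4, FGFR3 fell by 1.74 ± 0.36 (SE, adjusted p = 0.0641), and FGFR2 was 1.71 ± 0.27 higher with BMP4 than with FGF2 (SE, adjusted p = 0.0633). Which cells of the cultures changed was not measured.

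**Figure D4:**
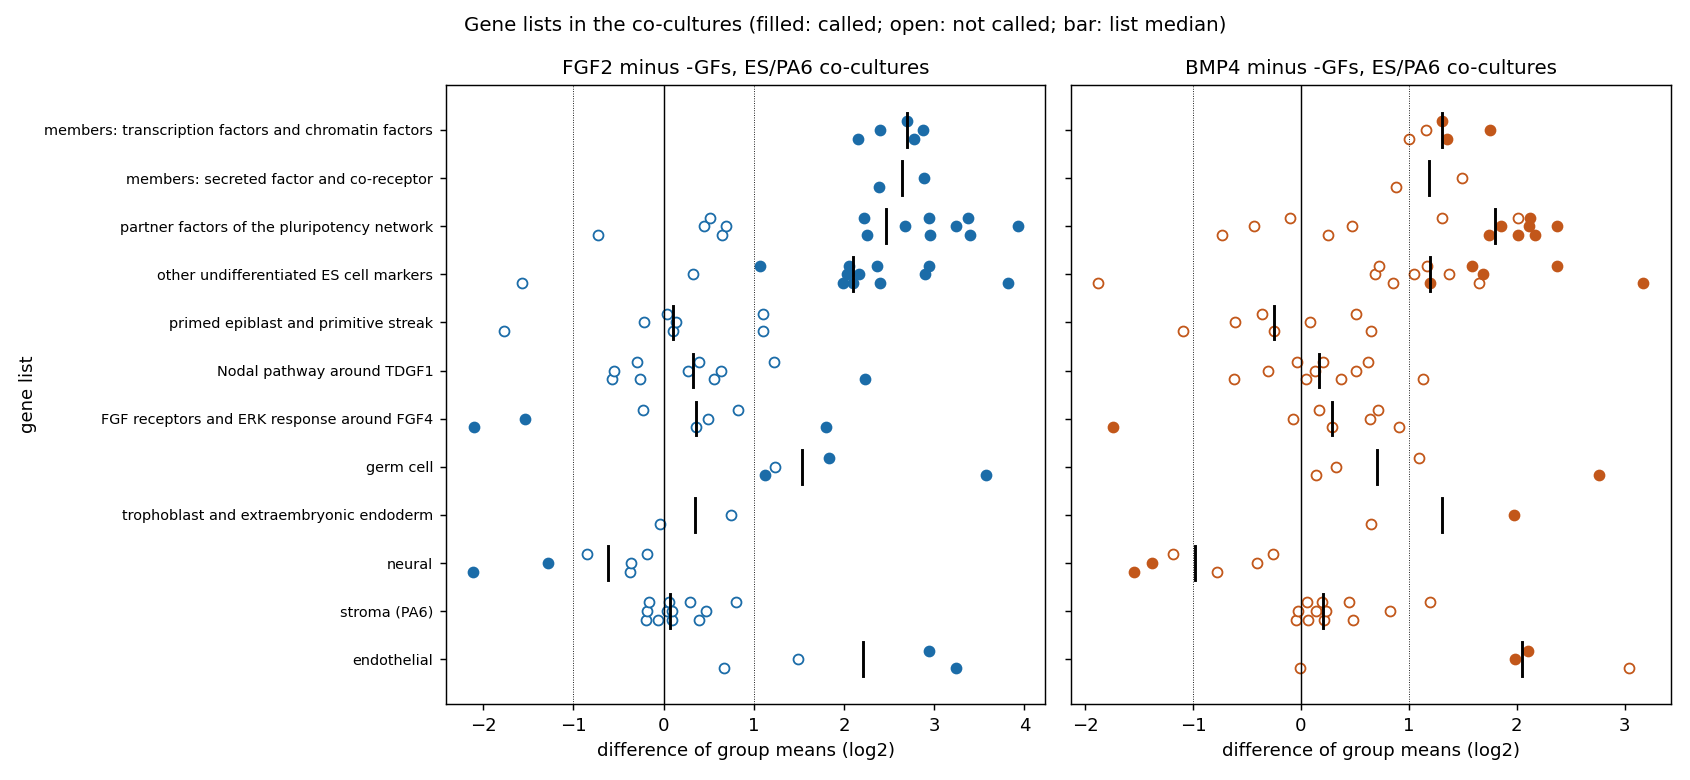
Differences of single genes (points) and list medians (bars), log2, for FGF2 minus -GFs (left) and BMP4 minus -GFs (right) in the co-cultures, by gene list. Filled points were called. The partner factors have medians of 2.46 and 1.80 and the stromal list 0.08 and 0.21.

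Markers of other cells in the cultures moved as follows beside these rises. Of 12 stromal genes none was called with either factor, and POSTN was not detected on any co-culture array. Of 6 neural genes, 2 fell with FGF2, HES5 by 2.11 ± 0.18 and NES by 1.29 ± 0.23, and 2 with BMP4, DCX by 1.54 ± 0.35 and HES5 by 1.38 ± 0.19 (log2, SE). Over all genes 2.35% were called lower with FGF2 and 1.47% with BMP4. The neural list averaged 9.80 to 10.62 on the -GFs arrays, 8.98 to 9.60 with FGF2 and 9.13 to 9.45 with BMP4, and SOX1, PAX6 and TUBB3 did not pass the detection filter. The part of this shift in the results above was not tested.

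Of 4 germ cell genes, which share several factors with ES cells, 3 rose with FGF2, while 5.07% of all genes were called higher. DAZL rose by 3.58 ± 0.40, KIT by 1.84 ± 0.32 and DDX4 by 1.12 ± 0.33 (log2, SE). DDX4 was detected on all 3 FGF2 arrays but on 1 of 2 -GFs and 1 of 2 BMP4 co-cultures. Among co-cultures it thus passed the filter only through FGF2, and its call (adjusted p = 0.0987) is against levels near background. With BMP4, DAZL rose by 2.76 ± 0.44. Of 4 endothelial genes, PECAM1, which undifferentiated mouse ES cells also carry, rose by 3.24 ± 0.42 with FGF2 and 1.98 ± 0.46 with BMP4. TEK was at least 5.86-fold and 3.28-fold higher, and CDH5, KDR, ICAM2 and TIE1 did not pass the filter. EMCN and ENG were not called with either factor. EMCN was at least 1.71-fold higher with FGF2 and 5.02-fold with BMP4 (adjusted p = 0.242 and 0.101). ENG differed by 0.68 with FGF2 and -0.0081 with BMP4 (log2). In the list of trophoblast and extraembryonic endoderm, 2 of 8 genes were tested, and neither was called with FGF2. SOX17, of endoderm and of early endothelium, was at least 2.43-fold higher with BMP4 than without growth factors. GATA6 was not called with BMP4, at 0.65 ± 0.27 (log2, SE, adjusted p = 0.324).

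The genes outside the 8 whose levels followed the mean of the 7 most closely over the 7 co-culture arrays were SMC1B (Pearson's r = 0.997), COBL (0.996), UPP1, NODAL and TRIML1 (each 0.995). SMC1B, a meiotic cohesin subunit, was at 8.56 and 8.76 (log2) without growth factors, at 11.27, 11.41 and 10.94 with FGF2 and at 10.67 and 9.51 with BMP4. COBL, an actin nucleator, was at 7.14 and 7.37, then 10.27, 10.66 and 10.29, then 9.34 and 8.18. Like the 7 genes, both were highest with FGF2 and higher on BMP4 replicate 1 than on replicate 2. The 7 arrays share their 3 groups and their normalisation, so these values describe likeness and are not a test.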

How the data were processed

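Total RNA of each culture was labelled with biotin and hybridised to an Illumina MouseWG-6 v2.0 array, 1 array per culture. The authors read the scans with GenomeStudio (version 2011.01, per the labels) and deposited, per probe and array, an average bead intensity that was not normalised between arrays. Beside it stands a deposited detection p-value, which ranks the probe among the negative controls of the same array. The cubic spline normalised values of their own comparisons were not used here. A genome build and probe sequences are not given in the sources used here. Groups were taken from the sample titles. The labels describe each biological replicate as a set of wells and do not say whether replicates came from separate thaws, so p-values measure the spread between these cultures.

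From the deposited intensities, log2 levels were computed with neqc of limma 3.58.1 (R 4.3.3): normexp background correction from the detection p-values, quantile normalisation and an offset of 16. A probe was retained where all arrays of 1 group or more had detected it (p under 0.05), as 20880 did, and the brightest probe stood for a gene (14829 genes). Rows without a probe or target name (6) were left out. Models were fitted with lmFit and eBayes to the 7 co-culture arrays, the 9 PA6 arrays or, for comparisons between them, all 16, without a block for replicates. Called means an adjusted p under 0.1 over all genes and a difference over 1 on the log2 scale. A gene whose tested probe was not detected in a group was given a bound against the lowest signal of detected probes on each array, or its own where higher. Fold changes of very bright probes are compressed, and precision is set by the small number of arrays. The fits were tested on simulated data.

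The named genes are the 8 genes, up to 4 genes of each of 12 lists (those called with the largest change, otherwise the brightest) and the 5 genes most like the mean of the 7. The genes and lists were chosen with earlier results of these data known. Some are named by older symbols of the array (AKP2, LIN28). SPRY1 and MAP2 were not found under these names. Alternatives covered scaling, background, filter, probe choice, variance prior, the set of arrays, a stricter adjusted p, blocks and leaving out each array.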

Additional observations from a re-analysis of the deposited data

Results flagged for a closer look

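The effect of FGF2 in co-cultures minus its effect in PA6 cells, tested as a difference by limma, was past the threshold in all 7 genes. It was 2.95 for ESRRB (adjusted p = 9.32e-05), 2.21 for FGF4 (0.00269), 2.24 for UTF1 (0.0110), 2.74 for TDGF1 (0.0126), 2.63 for NANOG (0.0139), 2.24 for POU5F1 (0.0304) and 3.28 for ZFP42 (0.0576), on the log2 scale. The same difference for BMP4 was past it in ESRRB, at 1.21 (adjusted p = 0.0425). The tested probes of UTF1, FGF4, TDGF1 and ESRRB were detected on no PA6 array, so that for them the PA6 side of this difference is background. With FGF2, POU5F1 was detected on 1 of 3 PA6 arrays, and NANOG and ZFP42 on 0 of 3. The FGF2 differences thus largely restate the rises in co-cultures.

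Signal also appeared in probes that no comparison used. The second ESRRB probe was detected at raw intensities of 251.1 on FGF2 replicate 3 of the co-cultures, 307.8 on FGF2 replicate 2 of the PA6 cultures and 340.4 on BMP4 replicate 1 of the PA6 cultures, above the -GFs arrays of the same kind of culture. It was also detected without any factor, at 296.4 on -GFs replicate 1 of the PA6 cultures and at 226.1 on -GFs replicate 2 of the co-cultures. On FGF2 replicate 1 of the PA6 cultures it was detected at 250.9. After normalisation it averaged 6.25 (log2) in the -GFs co-cultures and 6.43 in the FGF2 co-cultures, and did not show the rise of the first probe. This probe was brighter on some PA6 arrays than on any co-culture array, unlike the first probe of the gene, which no PA6 array detected. NR0B1 was detected at 286.7 on BMP4 replicate 1 of the co-cultures, the array that was also the higher of the BMP4 pair in the other 7 genes. It was detected on none of the FGF2 co-cultures, where the means of those 7 genes were highest.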

How the results depend on the processing

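With FGF2 in co-cultures all 7 genes stayed called under each alternative that leaves all arrays in, and 5 to 7 when an array was left out. The count for BMP4 against -GFs (3) was 0 at an adjusted p under 0.05, 1 without the filter on dim probes, 1 when runs of columns were the block and 0 with a replicate block, and 0 to 5 when an array was left out. For BMP4 against FGF2 (2) it was 0 at an adjusted p under 0.05, 1 without background correction, 0 without the filter, 5 with all 16 arrays in the fit, 0 with a replicate block and 0 to 4 when an array was left out. For the BMP4 effect in co-cultures minus that in PA6 cells (1) it was 2 with median scaling, without background correction, with every probe on its own and with a variance prior with trend, and 0 to 3 when an array was left out. No called difference of the 7 genes changed its sign under the alternatives run. Counts over all genes moved by more than 1.5 times: 1100 for FGF2 became 663 without background correction. The 556 for BMP4 became 282 at an adjusted p under 0.05, 282 without the filter, 856 with median scaling and 870 with all 16 arrays. The 214 for BMP4 against FGF2 became 63 and 68, 494 and 574 in that order, and 560 with runs as a block. When an array was left out the 3 counts were 395 to 1069, 102 to 547 and 39 to 187. The 4 for FGF2 in PA6 cells became 1 to 32 under the alternatives and 0 to 17 when an array was left out, and the 0 for BMP4 there became 0 to 6 and 0 to 5. The 1172 for the FGF2 difference between cultures became 741 with median scaling and 777 without background correction. With BMP4 the partner factors called (7) became 3 at an adjusted p under 0.05 or without the filter, and the other ES cell markers (5) became 2 under both, 9 with median scaling and 8 with trend. Median scaling moved the median of all genes to -0.21 for FGF2 and 0.29 for BMP4 against FGF2, and the 7 genes lay at 1.92 to 2.62 and -1.23 to -0.51. Requiring detection on all 16 arrays left none of the 7 genes to test and called 324, 32 and 2 of all genes for FGF2, BMP4 and BMP4 against FGF2, and 451 and 106 for the differences of the FGF2 and BMP4 effects. The cause of these shifts was not tested.

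The labels do not say that a replicate number marks a shared set, and the numbers were not taken as pairs. In co-cultures deviations of same-numbered arrays correlated at -0.20 to 0.28, and 2 of 7 arrays correlated best with their own number. In PA6 cells, where numbers and runs of columns coincide, same-numbered arrays correlated at 0.07 to 0.20 and others at -0.14 to -0.01, and 9 of 9 arrays correlated best with their own number, a hint from the data and not from the design. A replicate block moved the counts named above, to 258 and 11 for all genes in both BMP4 comparisons of co-cultures, to 23 for FGF2 in PA6 cells, and to 2 partner factors and 0 other ES cell markers for BMP4. It changed no other count of the 7 genes. Arrays of the same run of columns correlated at 0.10 to 0.28 in co-cultures. Signal over background limits FGF4, NR0B1 and all levels in PA6 cells.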
